A study of Mus musculus with 17 samples.

Results

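Genes of natural killer (NK) cells and of cell killing were followed in mouse lung: Ncr1, Klrb1c, Klrd1, Klrk1, Prf1, Gzma, Gzmb, Nkg7, Eomes and Tbx21. They were picked by gene symbol, and 10 of 10 were found among the 31245 genes of the count table and were among the 26946 genes tested. RNA from the lungs of 17 mice was sequenced, with 3 genotypes on 2 kinds of drinking water giving 6 groups. WT mice (Sv/129, bought from a supplier) had the mouse receptor PPARα, KO mice were PPARα null, and KI mice were humanized, carrying human PPARα in place of the mouse form. KO and KI mice came from breeding pairs that were null for mouse PPARα and heterozygous for human PPARα, and their strain is not given in the sources used here. From 6 weeks of age, the PFOA groups drank 6.2 μg/mL perfluorooctanoic acid (PFOA, labelled Hi-PFOA) in sucrose water for 14 weeks, and the vehicle groups drank sucrose water. WT vehicle had 2 libraries and each of the other 5 groups had 3. Each library was 1 mouse, numbered as in the labels. WT mice thus differed from KO and KI mice in origin as well as in the PPARα alleles, and these cannot be told apart.

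The libraries held 4116116 to 9237385 counts. The share of counts in protein-coding genes was 65.3% in WT vehicle 122 and 61.3% in KO vehicle 137, against 74.4% to 80.4% in the other libraries, so the counts of genes past the threshold are also given without them, while levels, ratios and list medians on vehicle include them. Ppara was not lower in the libraries labelled KO (10.4 ± 1.29 CPM, counts scaled to library size, on vehicle, SD, n = 3) than in WT (6.67 ± 0.763, SD, n = 2), so the names KO and KI refer only to what the labels say. The KO mice were all female, while the WT and KI groups held both sexes. The 3 KO PFOA libraries shared a second index number that no KO vehicle library had, and in KO the effects of index and PFOA cannot be told apart. Likewise, both WT vehicle libraries shared a second index number that no KO or KI vehicle library had, so index and genotype cannot be told apart on vehicle. Lung markers were abundant in every group. The lowest group mean of Sftpc, which encodes surfactant protein C, was 2166 CPM.

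NK cells are innate lymphocytes that patrol blood and tissues, the lung among them, and kill infected or altered cells without prior priming. Activating receptors such as NKp46 and NKG2D, set against inhibitory receptors that read MHC class I, decide whether the cell releases granules of perforin and granzymes. The T-box factors EOMES and T-bet direct NK cell development. Several of these genes, the granule genes in particular, are also used by cytotoxic T cells, so that the 10 genes mark a program shared by these cells rather than NK cells alone.

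In their sum, the 10 genes had the lowest group means in WT lungs and the highest in KO lungs on PFOA. Summed over the 10 genes, WT vehicle libraries had 10.4 and 6.39 CPM, and WT PFOA libraries had 19.3, 15.6 and 27.2 CPM. KO libraries had 30.6, 28.7 and 30.8 CPM on vehicle and 60.1, 49.1 and 71.6 CPM on PFOA. KI libraries had 45.2, 24.3 and 38.9 CPM on vehicle and 32.1, 49.7 and 50.7 CPM on PFOA. In order of their means, the groups were WT vehicle (8.39 ± 2.83), WT PFOA (20.7 ± 5.94), KO vehicle (30.0 ± 1.15), KI vehicle (36.2 ± 10.7), KI PFOA (44.2 ± 10.5) and KO PFOA (60.3 ± 11.3). The lowest 3 groups did not overlap in this order, while KO vehicle overlapped with KI vehicle, KI vehicle with KI PFOA, and KI PFOA with KO PFOA. KI vehicle also overlapped with WT PFOA, as KI vehicle 116 (24.3 CPM) was below WT PFOA 65 (27.2 CPM). WT vehicle had the lowest mean of the 6 groups for 10 of 10 genes, both WT groups were the lowest for 8, and KO PFOA was the highest for 8. In bulk lung RNA, fewer cells of a type and less RNA per cell cannot be told apart. All 10 genes were lowly expressed, so counts were small: 196 (Nkg7) to 998 (Gzma) in total over the 17 libraries, with a depth at which 3 counts equal 0.319 to 0.691 CPM.

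**Figure D1:**
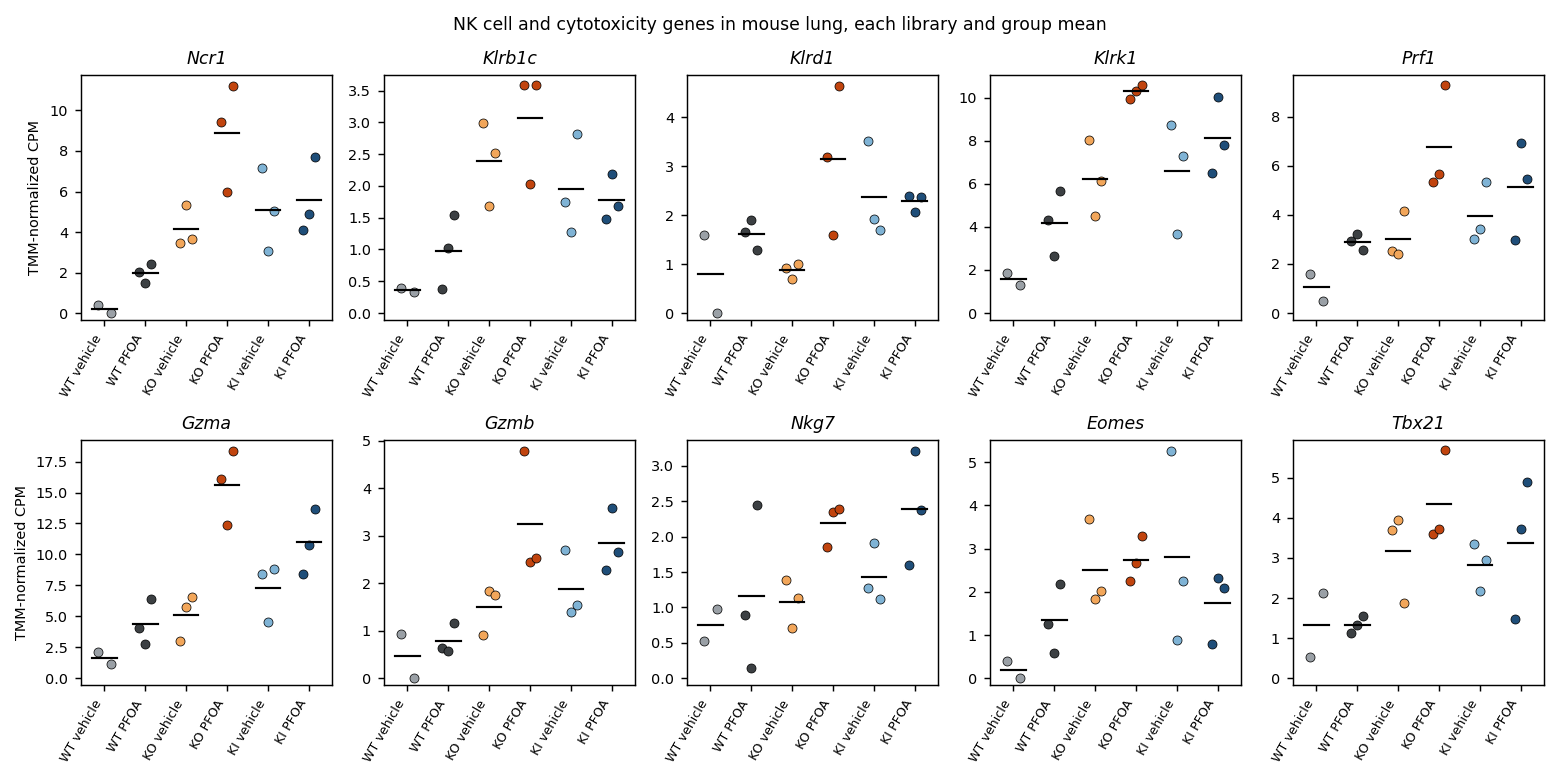
TMM-normalized CPM of the 10 genes (vertical axes, 1 panel per gene) in each of the 17 libraries (points), by group (horizontal axes), with a bar at the group mean. The 2 WT vehicle libraries are the lowest for Ncr1, Klrk1, Prf1, Gzma and Eomes, and the highest library is from KO PFOA for Ncr1 (11.2 CPM) and Gzma (18.4 CPM), where other KO PFOA libraries overlap with KI.

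Per kilobase of exon, and over all 17 libraries, Gzma was the most abundant of the 10 genes (7.80 CPM per kb), followed by Ncr1 (2.95), Nkg7 (1.69), Prf1 (1.53) and Klrd1 (1.49). Gzmb had 1.30, Tbx21 1.13, Klrk1 0.897, Klrb1c 0.621 and Eomes 0.478 CPM per kb. Levels of the 10 genes moved together across libraries. The Spearman correlation of each gene with the mean of the other 9, a description over 17 libraries that share groups, ran from 0.534 (Klrd1) to 0.944 (Klrk1).

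Because these genes moved together, the DNA before their transcription starts was searched for letters bound by factors of cytotoxic lymphocytes. RefSeq windows of 250 bases before to 50 after a start (GRCm38.p6) were found for 9 of the 10 genes, Klrd1 being the exception. The RefSeq start lay 574 bases from the annotated gene start for Klrb1c, 74 for Gzmb, 65 for Nkg7 and 23 or fewer for the others. The RUNX core TGTGGT, on either strand, was present in 7 of 9 windows, against 16.8% of all 32851 RefSeq windows. The T-box core TCACACC was in 1 window (Nkg7) against 3.98%, the GAS letters TTCNNNGAA in 2 (Gzmb and Nkg7) against 8.30%, and the ETS letters CCGGAA in 0 against 14.9%. A match is a run of letters, not a bound site. Only these letters were searched, so a window without a match can still hold another form of a site. Shown are the windows nearest to the annotated starts of Ncr1, Klrk1, Gzma and Eomes. The first 3 are the genes past the threshold in at least 3 of the 4 comparisons with WT. Eomes, like Tbx21, held none of the 4 runs of letters searched. Capitals mark the RUNX core or its reverse complement.
Ncr1 (chr7:4337474-4337773, + strand): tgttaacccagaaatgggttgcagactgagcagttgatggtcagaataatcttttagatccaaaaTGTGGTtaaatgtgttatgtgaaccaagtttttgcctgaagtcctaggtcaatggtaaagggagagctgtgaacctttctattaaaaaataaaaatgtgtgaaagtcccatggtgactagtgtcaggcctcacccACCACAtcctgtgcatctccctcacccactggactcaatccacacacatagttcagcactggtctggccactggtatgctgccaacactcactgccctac
Klrk1 (chr6:129623815-129624114, - strand): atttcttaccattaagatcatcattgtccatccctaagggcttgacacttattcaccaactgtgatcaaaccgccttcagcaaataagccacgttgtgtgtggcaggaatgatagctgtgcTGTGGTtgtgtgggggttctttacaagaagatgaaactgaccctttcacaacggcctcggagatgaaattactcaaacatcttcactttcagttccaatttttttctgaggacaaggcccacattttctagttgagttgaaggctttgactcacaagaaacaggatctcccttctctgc
Gzma (chr13:113100932-113101231, - strand): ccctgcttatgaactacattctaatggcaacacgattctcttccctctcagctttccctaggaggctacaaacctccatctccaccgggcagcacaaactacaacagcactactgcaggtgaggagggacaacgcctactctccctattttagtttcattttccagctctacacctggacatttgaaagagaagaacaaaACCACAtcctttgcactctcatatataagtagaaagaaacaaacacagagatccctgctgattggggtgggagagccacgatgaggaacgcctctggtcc
Eomes (chr9:118477939-118478238, + strand): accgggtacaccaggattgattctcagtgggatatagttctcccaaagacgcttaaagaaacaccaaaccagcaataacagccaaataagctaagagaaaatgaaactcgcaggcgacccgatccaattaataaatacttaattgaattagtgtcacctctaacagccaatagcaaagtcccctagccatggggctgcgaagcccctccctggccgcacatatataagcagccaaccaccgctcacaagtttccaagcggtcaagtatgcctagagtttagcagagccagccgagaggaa

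Among the receptors, Ncr1 (ENSMUSG00000062524, mm10 chromosome 7, 4337724 to 4345164) differed most. It encodes NKp46, an activating receptor found in mice mainly on NK cells and other innate lymphoid cells, type 1 among them. The 2 WT vehicle libraries had 0.400 and 0 CPM (3 and 0 counts), against 2.03, 1.46 and 2.44 CPM in WT on PFOA. KO libraries had 3.46, 5.35 and 3.64 CPM on vehicle and 9.43, 5.96 and 11.2 CPM on PFOA. KI libraries had 7.16, 3.05 and 5.06 CPM on vehicle and 4.11, 4.88 and 7.69 CPM on PFOA. Every KO and KI library was above every WT library. On PFOA, the log2 fold change was 2.14 ± 0.41 (SE) in KO against WT (edgeR adjusted p = 0.0186) and 1.47 ± 0.41 in KI against WT (edgeR adjusted p = 0.274). On vehicle, the WT group held only 3 counts, so the ratio of pooled levels is given with its exact 95% interval for counting error. This ratio was 19.2 (6.33 to 94.9) in KO and 22.4 (7.46 to 110.5) in KI, with edgeR adjusted p = 0.0114 and 0.00472.

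Klrk1 (ENSMUSG00000030149, chromosome 6, 129610323 to 129623864) encodes NKG2D, the activating receptor for stress-induced ligands. WT libraries had 1.86 and 1.31 CPM on vehicle and 4.31, 2.63 and 5.65 CPM on PFOA. KO libraries had 8.06, 4.50 and 6.15 CPM on vehicle and 9.97, 10.3 and 10.6 CPM on PFOA. KI libraries had 8.76, 3.69 and 7.31 CPM on vehicle and 6.51, 10.02 and 7.83 CPM on PFOA. Within each exposure the KO and KI libraries were above the WT libraries. The log2 fold change on vehicle was 1.93 ± 0.43 in KO against WT (edgeR adjusted p = 0.0691) and 2.02 ± 0.43 in KI against WT (edgeR adjusted p = 0.0559). On PFOA it was 1.28 ± 0.32 in KO (edgeR adjusted p = 0.0995) and 0.94 ± 0.32 in KI (edgeR adjusted p = 0.546).

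Klrb1c (ENSMUSG00000030325, chromosome 6, 128778485 to 128789215) encodes NK1.1, a lectin-like receptor used as an NK marker in strains that carry the epitope. Its span overlaps that of the predicted gene Gm44511 on the same strand, and reads of the NKR-P1 genes can be shared. It had 0.400 and 0.328 CPM in WT vehicle libraries and 0.380, 1.02 and 1.54 CPM in those of WT PFOA. Klrb1c in KO was at 2.99, 1.69 and 2.51 CPM on vehicle and 3.59, 2.02 and 3.59 CPM on PFOA. KI libraries had 1.27 to 2.81 CPM on vehicle and 1.48 to 2.18 CPM on PFOA. KO libraries did not overlap with WT on either exposure, while KI and WT overlapped on PFOA. The log2 fold change of KO against WT was 2.64 ± 0.67 on vehicle (edgeR adjusted p = 0.118) and 1.62 ± 0.49 on PFOA (edgeR adjusted p = 0.22).

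Klrd1 (ENSMUSG00000030165, chromosome 6, 129591782 to 129598775) encodes CD94, the partner of the NKG2 receptors that recognise nonclassical MHC class I. It followed the others least. WT vehicle libraries had 1.60 and 0 CPM and WT PFOA libraries 1.65, 1.90 and 1.29 CPM. KO libraries had 0.921, 0.704 and 1.0 CPM on vehicle and 3.19, 1.60 and 4.64 CPM on PFOA, and the KI groups averaged 2.37 ± 0.99 and 2.28 ± 0.191 CPM (SD, n = 3 each). The 3 KO vehicle libraries were thus below those of KI vehicle and below WT PFOA. On vehicle, the log2 fold change in KO against WT was 0.06 ± 0.79 (edgeR adjusted p = 0.982), and it turned to -0.85 without WT vehicle 122, which had 0 counts.

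Gzma (ENSMUSG00000023132, chromosome 13, 113093825 to 113100981), which encodes the granule protease granzyme A, was the most abundant of the 10 genes and the only member past the threshold in each of the 4 comparisons with WT. WT libraries had 2.13 and 1.15 CPM on vehicle and 4.05, 2.78 and 6.43 CPM on PFOA. KO libraries had 2.99, 5.77 and 6.53 CPM on vehicle and 16.1, 12.3 and 18.4 CPM on PFOA. KI libraries had 8.44, 4.58 and 8.86 CPM on vehicle and 8.45, 10.8 and 13.7 CPM on PFOA. The KO PFOA libraries were above all others except KI PFOA 139, which lay among them. The log2 fold change in KO against WT was 1.64 ± 0.46 on vehicle (edgeR adjusted p = 0.16) and 1.81 ± 0.34 on PFOA (edgeR adjusted p = 0.017). In KI against WT it was 2.11 ± 0.45 on vehicle (edgeR adjusted p = 0.0567) and 1.30 ± 0.34 on PFOA (edgeR adjusted p = 0.192).

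Gzmb (ENSMUSG00000015437, chromosome 14, 56258838 to 56262260) encodes granzyme B, the protease that triggers apoptosis in target cells. WT libraries had 0.932 and 0 CPM on vehicle and 0.634, 0.585 and 1.16 CPM on PFOA, values near the level of 3 counts. KO libraries had 0.921, 1.83 and 1.76 CPM on vehicle and 4.78, 2.45 and 2.54 CPM on PFOA, and KI libraries had 2.71, 1.40 and 1.55 and then 2.28, 3.60 and 2.66 CPM. On PFOA, both KO and KI lay above WT without overlap. The log2 fold change there was 2.01 ± 0.58 in KO (edgeR adjusted p = 0.192) and 1.81 ± 0.59 in KI (edgeR adjusted p = 0.474).

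Prf1 (ENSMUSG00000037202, chromosome 10, 61297833 to 61304680) encodes perforin, which opens the target membrane to granzymes. WT libraries had 1.60 and 0.491 CPM on vehicle and 2.91, 3.22 and 2.57 CPM on PFOA. KO libraries had 2.53, 2.39 and 4.14 CPM on vehicle and 5.31, 5.64 and 9.27 CPM on PFOA, and KI libraries had 3.02, 3.44 and 5.34 and then 2.97, 6.94 and 5.45 CPM. KI on vehicle was higher than WT by 1.85 ± 0.52 on the log2 scale (edgeR adjusted p = 0.19). The other comparisons with WT had log2 fold changes of 0.81 to 1.49 and did not pass the threshold. Nkg7 (ENSMUSG00000004612, chromosome 7, 43437073 to 43438249), a granule membrane protein needed for degranulation, had group means from 0.758 ± 0.318 CPM (SD, n = 2, WT vehicle) to 2.40 ± 0.807 CPM (SD, n = 3, KI PFOA). The WT PFOA libraries ranged from 0.146 to 2.44 CPM and overlapped with every other group. Nkg7 passed the threshold in none of the 4 comparisons with WT, with log2 fold changes of 0.48 to 1.02.

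Of the transcription factors, Eomes (ENSMUSG00000032446, chromosome 9, 118478212 to 118486132), which sets apart conventional NK cells from most type 1 innate lymphoid cells, had 0.400 and 0 CPM in WT vehicle libraries (3 and 0 counts). WT PFOA libraries had 1.27, 0.585 and 2.18 CPM. KO libraries had 3.69, 1.83 and 2.01 CPM on vehicle and 2.26, 2.66 and 3.29 CPM on PFOA, and KI libraries had 5.25, 0.891 and 2.25 and then 0.799, 2.31 and 2.10 CPM. Both KO and KI vehicle lay above WT vehicle without overlap. The pooled level on vehicle was 10.5 times that of WT in KO (exact 95% interval 3.38 to 52.9) and 11.96 times in KI (3.89 to 59.7), with edgeR adjusted p = 0.165 and 0.166. On PFOA, the log2 fold changes were 1.0 ± 0.63 in KO and 0.34 ± 0.65 in KI, and neither passed. Eomes overlaps a predicted gene on the opposite strand, Gm33460, and how the counting used the strand is not given in the sources used here.

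Tbx21 (ENSMUSG00000001444, chromosome 11, 97098071 to 97115331) encodes T-bet, which is shared by NK cells, type 1 innate lymphoid cells and T helper 1 cells. WT libraries had 0.533 and 2.13 CPM on vehicle and 1.14, 1.32 and 1.54 CPM on PFOA. KO libraries had 3.69, 3.94 and 1.88 CPM on vehicle and 3.59, 3.73 and 5.68 CPM on PFOA, and KI libraries had 2.16 to 3.34 and 1.48 to 4.89 CPM. Tbx21 was the gene for which the WT vehicle library 122 was above library 107 by the widest margin. KO was higher than WT on PFOA by 1.68 ± 0.48 on the log2 scale (edgeR adjusted p = 0.191), without overlap between the libraries.

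Counted together, KO and KI were in the higher direction against WT in 40 of 40 comparisons of a gene within an exposure, and 16 of these were past the threshold, which is an adjusted p below 0.2 together with a fold change above 2. The comparisons within an exposure share their WT libraries. In KO against WT on vehicle, 5 of 10 genes passed, against 0.913% of all genes tested that were higher. The libraries of 6 genes did not overlap, against 12.3% of all genes. In KO against WT on PFOA, 5 of 10 passed (background 0.635%), and 8 did not overlap (9.6%). For KI, 5 of 10 passed on vehicle (0.557%) and 10 did not overlap (11.8%), while on PFOA 1 passed (0.338%) and 5 did not overlap (6.75%). The median log2 fold change of the 10 genes was 1.62 and 1.45 in KO on vehicle and PFOA and 1.95 and 0.98 in KI, where the medians of all genes tested were within 0.05 of 0. None of the 10 genes was lower with an unadjusted p under 0.05 in these 4 comparisons. In the sums, the 1 WT female per exposure had 19.3 CPM on PFOA and 10.4 CPM on vehicle. The all-female KO groups had 49.1 to 71.6 and 28.7 to 30.8 CPM. These values do not show the part of sex, which was not tested on its own. With sex as a covariate, KO lost the calls of Gzma and Eomes on vehicle. On PFOA it lost those of Klrk1, Gzmb and Tbx21.

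The vehicle counts rest on WT vehicle 122. Without it, 0 genes passed in KO and 1 (Ncr1) in KI, and without both WT vehicle 122 and KO vehicle 137 the counts were again 0 and 1. Without WT vehicle 107, 8 passed in each. On PFOA, where these libraries enter only through the shared spread, leaving out both gave 7 in KO and 3 in KI. The count in KO on PFOA fell to 2 without WT PFOA 50 or 56 or without KO PFOA 52, 154 or 155, and to 3 without WT PFOA 65, KO vehicle 145, KI vehicle 135 or KI PFOA 80. The 2 that remained in each of these fits were Gzma and Ncr1. Without KO PFOA 52 the KO vehicle count was 3, and the KI vehicle count was 2 or 3 without KI vehicle 102 or 135, KO PFOA 52 or 154, or KI PFOA 80. The single call in KI on PFOA, Gzma, was lost in 11 of 17 fits that each left out 1 library, and 3 genes passed without WT vehicle 107 or 122. With the second index number as a covariate, 1 gene passed in KO on each exposure. The effect of the number shared by the WT vehicle libraries was there taken from PFOA libraries. On vehicle, index and genotype thus cannot be told apart with this covariate either. Across 29 alternative settings, Gzma kept its call in KO on PFOA in 29, Ncr1 in KI on vehicle in 29, and Ncr1 in KO on PFOA in 28.

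**Figure D2:**
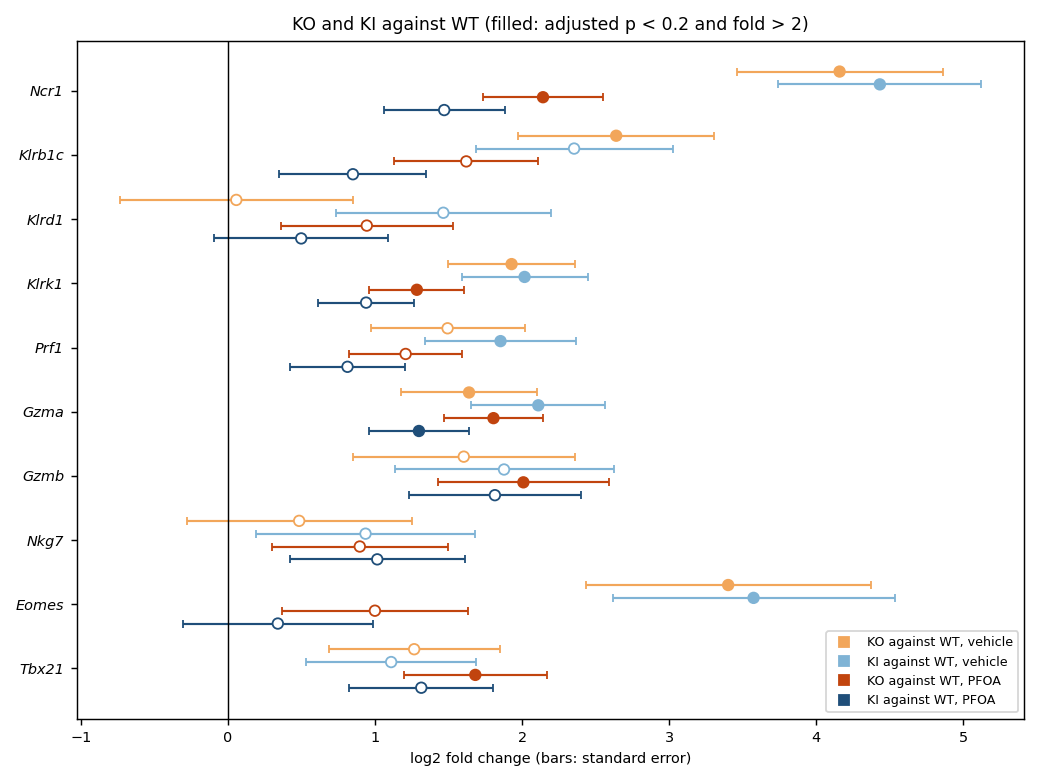
Log2 fold change (horizontal axis) with its standard error (bars) for the 10 genes (vertical axis) in KO and KI against WT on vehicle or PFOA, in 4 colours. Filled points are past the threshold. All 40 points are above 0, from 0.06 for Klrd1 in KO on vehicle to 4.43 for Ncr1 in KI on vehicle.

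KO and KI were then compared with each other. On vehicle, 0 of 10 genes passed, against 0.00371% of all genes (1 gene), and on PFOA 0 passed, against 0%. With DESeq2, and without WT vehicle 122 and KO vehicle 137, the counts for the 10 genes were 0 as well. At an unadjusted p under 0.05, 2211 and 621 of all genes differed. Klrd1, lower in KO on vehicle by 1.41 ± 0.65 on the log2 scale, was the only one of the 10 genes among them. The differences between KO and KI on PFOA were from -0.12 ± 0.57 (Nkg7) to 0.77 ± 0.46 (Klrb1c) on the log2 scale.

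The exposure itself was the study's main question. Within each genotype, PFOA against vehicle gave 0 of 10 genes past the threshold, and the same count for all genes tested was 0% in WT, 0% in KO and 0% in KI. In WT, 10 of 10 genes were in the higher direction with a median log2 fold change of 1.38, and 5 had an unadjusted p under 0.05 (background 3.12%): Ncr1, Klrk1, Prf1, Gzma and Eomes. The libraries of the same 5 did not overlap (11.6%). In KO, 10 of 10 were in the higher direction with a median of 1.06, 5 had an unadjusted p under 0.05 (3.74%), namely Ncr1, Klrd1, Klrk1, Prf1 and Gzma, and 7 did not overlap (6.82%). In KI, the median was 0.28, 7 of 10 were in the higher direction, and 0 had an unadjusted p under 0.05 (1.47%) or libraries that did not overlap (4.45%). Over all genes, 1981, 2639 and 699 had an unadjusted p under 0.05 in WT, KO and KI.

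The gene nearest to the threshold was Gzma. In KO its group mean was 5.10 ± 1.86 CPM on vehicle and 15.6 ± 3.05 CPM on PFOA (SD, n = 3 each), without overlap, a log2 fold change of 1.57 ± 0.34 (edgeR adjusted p = 0.434). In WT its log2 fold change was 1.40 ± 0.46 (edgeR adjusted p = 0.515) and in KI 0.59 ± 0.33 (edgeR adjusted p = 1). DESeq2 called Gzma in KO. Without WT vehicle 122 and KO vehicle 137, edgeR again gave 0 of the 10 genes in KO. Ncr1 in WT had a pooled ratio of 9.07 (exact 95% interval 2.91 to 45.6) between PFOA and vehicle, and an edgeR adjusted p of 0.456. DESeq2 with its default filters called it. The WT values rest on both vehicle libraries: without WT vehicle 107, 7 of 10 genes passed, and without WT vehicle 122, 0 passed and Gzmb turned to -0.22.

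**Figure D3:**
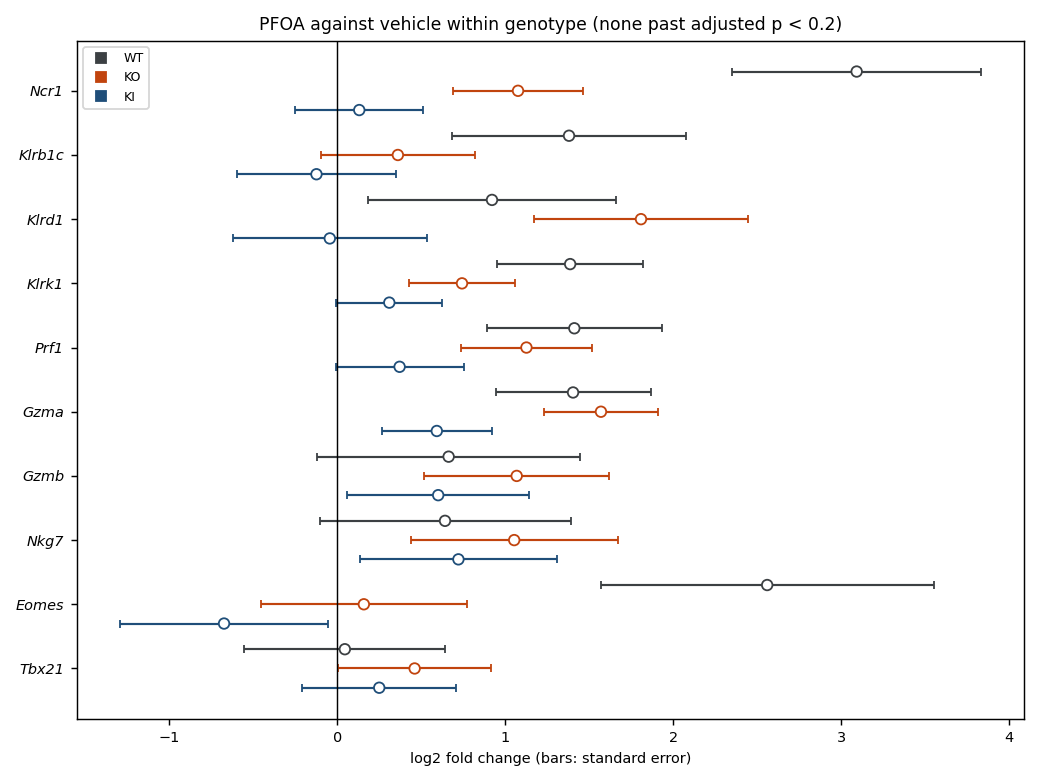
Log2 fold change (horizontal axis) with its standard error (bars) for the 10 genes (vertical axis) in PFOA against vehicle within WT, KO and KI. No point passed the threshold. WT and KO points are above 0 for 10 of 10 genes, while KI points range from -0.67 for Eomes to 0.72 for Nkg7.

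When genotype and PFOA entered as additive terms, PFOA gave 0 of 10 genes past the threshold (0% of all genes), with 10 of 10 in the higher direction, a median log2 fold change of 0.81, and 7 with an unadjusted p under 0.05 (3.8% of all genes, 2228 genes in both directions). Gzma was first again (1.14 ± 0.22, edgeR adjusted p = 0.288), followed by Prf1 (0.89 ± 0.25, edgeR adjusted p = 0.436) and Klrk1 (0.71 ± 0.21, edgeR adjusted p = 0.457). Gzma was called by DESeq2, and by edgeR without KI vehicle 102, KI vehicle 135, KI PFOA 57 or KI PFOA 139. The difference between genotypes in the exposure effect was tested directly. No gene passed for KO minus WT (0% of all genes), KI minus WT (0%) or KO minus KI (0%), and DESeq2 gave 0 of the 10 genes in each. At an unadjusted p under 0.05, these comparisons held 2010, 1235 and 1460 of all genes. Among them were Ncr1 and Eomes, whose effects in KI were smaller than in WT by 2.96 ± 0.85 and 3.23 ± 1.17 on the log2 scale (edgeR adjusted p = 0.999 for both). Ncr1 was also among them for KO minus WT (-2.02 ± 0.87, edgeR adjusted p = 0.669). For KO minus KI, Klrd1 was (1.85 ± 0.86, edgeR adjusted p = 0.912). Without WT vehicle 107, 2 genes passed for KI minus WT.

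Other genes of the NK program were read from lists chosen by function. Of all genes tested, 0.913% in KO and 0.557% in KI were higher past the threshold against WT on vehicle. On PFOA these shares were 0.635% and 0.338%, and they apply to each list below. Of 23 further NK receptors tested, 4 were higher past the threshold in KO and 3 in KI against WT on vehicle, and 5 and 1 on PFOA, with 0 lower. Named after their values were seen, these were Klre1, Cd226, Slamf7 and Crtam in KO on vehicle, and Klra1, Klre1, Cd244a, Fcgr3 and Slamf7 in KO on PFOA. With the second index number as a covariate all 5 of the latter were lost, and with sex Klra1, Klre1 and Cd244a were. In KI they were Klre1, Cd226 and Slamf7 on vehicle and Slamf7 on PFOA, the last kept in 15 of 29 alternatives. Cd244a overlaps Ly9 on the opposite strand. Slamf7, a self-ligand receptor that activates NK cells through EAT-2, rose from 5.79 CPM in WT to 16.6 CPM in KO on PFOA (log2 fold change 1.53 ± 0.30, edgeR adjusted p = 0.023). Klre1, a receptor that pairs with KLRI proteins, had a log2 fold change of 2.03 ± 0.51 in the same comparison (edgeR adjusted p = 0.101). Klra1 belongs to the Ly49 family, whose near-identical members can share reads. The median log2 fold change of the 23 receptors was 1.66 and 1.78 on vehicle in KO and KI and 1.03 and 0.79 on PFOA.

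The remaining 15 granule and killing genes, which are mostly lysosomal or secretory genes used by many cell types, had medians of -0.09 and -0.01 on vehicle and 0.20 and 0.08 on PFOA. Ctsw, a protease of cytotoxic lymphocytes, was the 1 that passed, in KI on vehicle (1.65 ± 0.45, edgeR adjusted p = 0.178). The Ctsw call was kept in 14 of 29 alternatives and lost with sex or the second index number as a covariate. Of 14 signalling adaptors, Sh2d1b1, which encodes the EAT-2 adaptor, passed in KO on vehicle (1.88 ± 0.43, edgeR adjusted p = 0.0767) and Syk, a kinase that myeloid and B cells also use, in KI on vehicle (1.27 ± 0.31, edgeR adjusted p = 0.113). Among 11 development factors, Runx3 passed in KI on vehicle (1.41 ± 0.32, edgeR adjusted p = 0.0735). Ccl5, a chemokine of cytotoxic lymphocytes, passed on vehicle in KO and KI (2.50 ± 0.65 and 2.98 ± 0.64, edgeR adjusted p = 0.127 and 0.0567). Il18rap, the accessory chain of the IL-18 receptor, passed on PFOA in KO and KI (1.30 ± 0.28 and 1.09 ± 0.28, edgeR adjusted p = 0.048 and 0.185). The KO call was kept in 25 of 29 alternatives, the second index number being among those that lost it, and the KI call in 15 of 29. These were the only ones of 23 cytokine, chemokine and receptor genes to pass.

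In the list of NK receptor ligands and related genes, 13 were tested, and bulk lung RNA does not show which cells express them. Nlrc5, not itself a ligand but the transactivator of MHC class I genes, passed in all 4 comparisons with WT. Its group means were 8.12 CPM in WT vehicle and 16.3 CPM in WT PFOA, against 31.7 to 39.8 CPM in the KO and KI groups. The log2 fold change was 2.15 ± 0.29 in KO and 1.96 ± 0.29 in KI on vehicle (edgeR adjusted p = 0.000977 and 0.00278), and 1.2 ± 0.23 and 1.29 ± 0.23 on PFOA (edgeR adjusted p = 0.023 and 0.0191). H60b, an NKG2D ligand whose span overlaps those of other genes, passed in KO on vehicle (2.76 ± 0.64, edgeR adjusted p = 0.0806). With the second index number as a covariate, the Nlrc5 call in KO on PFOA was lost (edgeR adjusted p = 0.315), and the other 3 were kept in 29 of 29 alternatives. Without WT vehicle 122, Nlrc5 kept its calls on vehicle in KO and KI, and the vehicle calls of the other named list genes, B cell genes and Scgb1a1 included, were lost.

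PFOA against vehicle over the 3 genotypes gave 0 genes past the threshold in each of these lists. The smallest p-values were those of Ccl5 (1.27 ± 0.28 on the log2 scale, edgeR adjusted p = 0.385), Il2rb, the shared IL-2 and IL-15 receptor chain (1.04 ± 0.25, edgeR adjusted p = 0.385), and H2-T23, which encodes the Qa-1 ligand of CD94/NKG2 receptors (0.48 ± 0.11, edgeR adjusted p = 0.385). The adaptors Cd247 (0.55 ± 0.15), Tyrobp (0.87 ± 0.23) and Lck (0.77 ± 0.23) and the receptors Cd226 (0.74 ± 0.23), Klre1 (1.04 ± 0.33) and Cd244a (0.60 ± 0.21) followed. In the other lists the leading genes were Stx11 (0.40 ± 0.13), Srgn (0.52 ± 0.19), Cst7 (1.59 ± 0.63), Runx3 (0.42 ± 0.18), Ets1 (0.31 ± 0.15), Stat4 (0.44 ± 0.23), Il18rap (0.59 ± 0.18), H2-K1 (0.32 ± 0.10) and B2m (0.55 ± 0.19). In WT alone, Il12rb2 (1.67 ± 0.47) and Nlrc5 (1.0 ± 0.29) were among the genes with an unadjusted p under 0.01, and in KO alone Fcgr3 (0.92 ± 0.31) and Il2rb (1.51 ± 0.39).

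**Figure D4:**
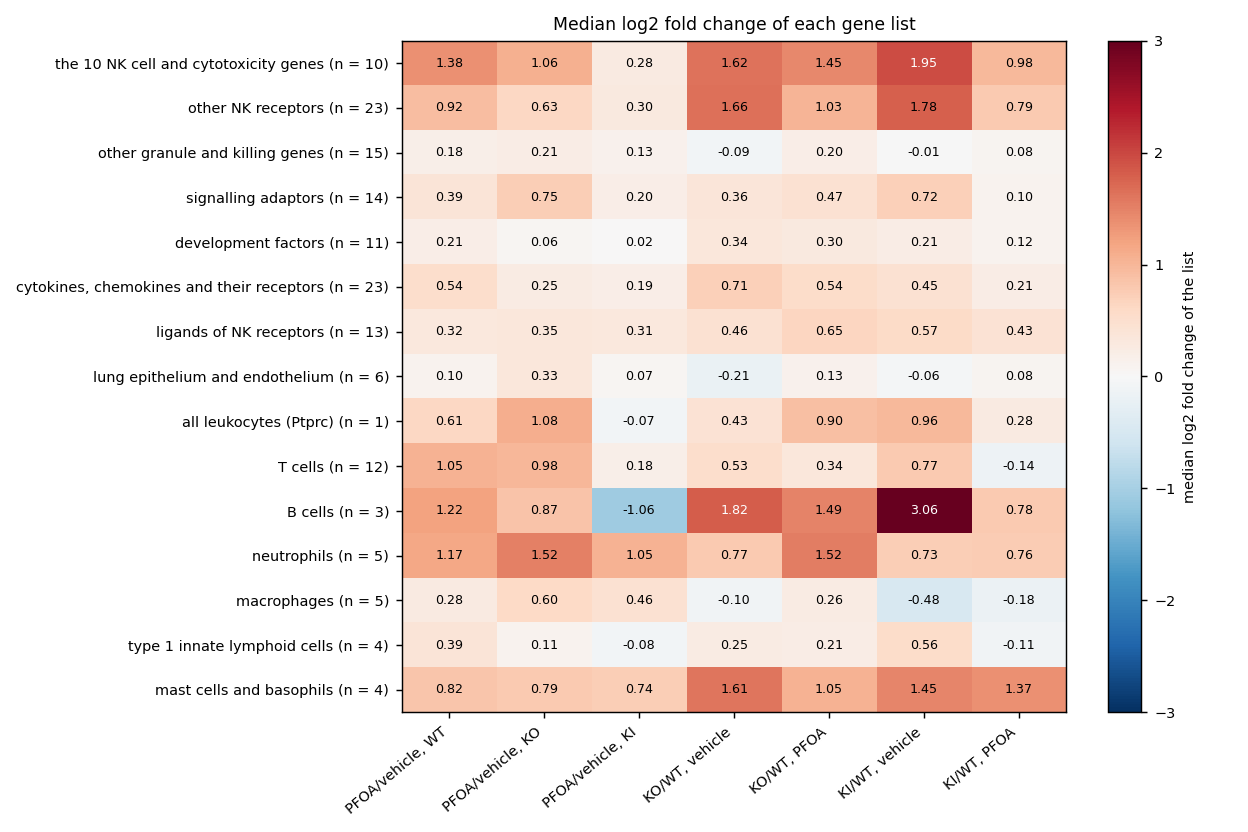
Median log2 fold change (colour and printed value) of each gene list (rows, with the number of genes tested) in 7 comparisons (columns). The 10 NK cell and cytotoxicity genes and the other NK receptors are well above 0 in the 4 comparisons with WT. So are the mast cell, B cell (3.06 in KI on vehicle) and neutrophil lists (the last at 0.73 to 1.52). The T cell list lies between -0.14 and 0.77 in these comparisons.

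Genes of other leukocytes moved with some of these differences. Ptprc (CD45), which marks all leukocytes, had 89.4 to 97.9 CPM in WT vehicle, 128.5 to 160.0 in WT PFOA, 73.2 to 158.0 in KO vehicle, 202.3 to 332.8 in KO PFOA, 104.1 to 233.8 in KI vehicle and 126.4 to 209.5 in KI PFOA. The 12 T cell genes summed to 19.98 to 27.3 CPM in WT vehicle and 43.3 to 59.3 in WT PFOA. In KO they summed to 25.3 to 37.9 CPM on vehicle and 50.0 to 70.4 on PFOA, and in KI to 31.7 to 49.0 and 35.4 to 57.4 CPM. No T cell gene was at 0 in any library. For PFOA against vehicle, 12 of 12 T cell genes were in the higher direction in WT and in KO, 6 and 9 of them with an unadjusted p under 0.05 and 0 past the threshold, and their median against WT was 0.53 and 0.34 in KO and 0.77 and -0.14 in KI on vehicle and PFOA. Named by p-value, Trac (1.16 ± 0.23, edgeR adjusted p = 0.288), Cd3e (0.76 ± 0.25) and Cd6 (0.61 ± 0.20) led the list over the 3 genotypes. The part of T cells in the results of the 10 genes was not tested.

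The ratio of the 10 genes to the T cell genes separated WT from KO and KI libraries, but not KO from KI. The summed CPM of the 10 genes was 0.320 and 0.380 times that of the 12 T cell genes in WT vehicle libraries and 0.325 to 0.629 times in WT PFOA libraries. It was 0.811 to 1.13 times in KO vehicle, 0.904 to 1.02 in KO PFOA, 0.767 to 0.922 in KI vehicle and 0.866 to 1.21 in KI PFOA. The 5 WT libraries were below the 12 KO and KI libraries, and within KO and KI the ranges of vehicle and PFOA overlapped. Relative to Ptprc, WT libraries had 0.0714 to 0.170 and KO and KI libraries 0.185 to 0.418, again without overlap, the highest being KO vehicle 137. Across the 17 libraries, the sum of the 10 genes had a Spearman correlation of 0.824 with Ptprc and 0.628 with the T cell sum, as a description, since groups and libraries are shared.

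**Figure D5:**
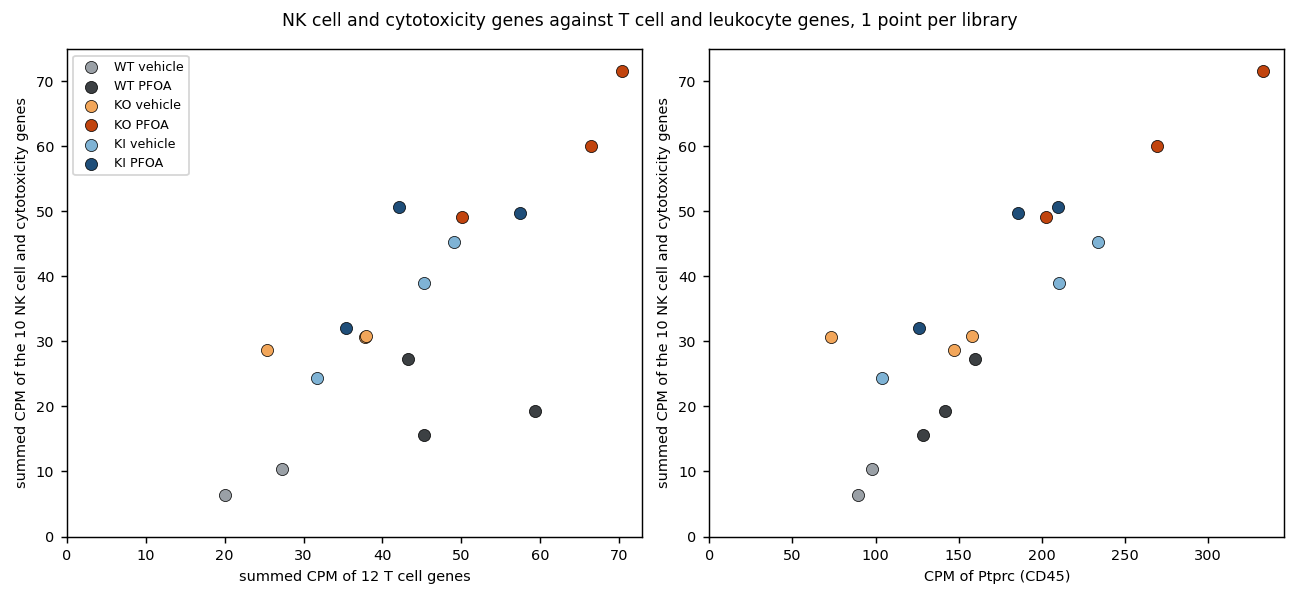
Summed CPM of the 10 genes (vertical axes) against the summed CPM of 12 T cell genes (left) and the CPM of Ptprc (right), with 1 point per library and a colour per group. The 5 WT libraries have 0.320 to 0.629 times the T cell sum, and the 12 KO and KI libraries have 0.767 to 1.21 times.

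B cell genes also differed between the genotypes. Of 3 B cell genes, 3 passed in KI against WT on vehicle (Ms4a1, Cd79a and Cd79b). Of all genes tested, 0.557% were higher past the threshold there. Of 29 alternatives, 23 kept the call of Ms4a1, 13 that of Cd79a and 18 that of Cd79b. With the second index number as a covariate these 3 calls were lost, and with sex that of Cd79a was. Ms4a1 also passed in KO on PFOA (2.04 ± 0.55, edgeR adjusted p = 0.149), a call lost with sex or the second index number as a covariate. The sum of the 3 genes was 1.15 to 7.33 CPM in WT vehicle and 7.64 to 60.8 in KI vehicle. Over the 3 genotypes on PFOA, Cd79b, Ms4a1 and Cd79a had 0.43 ± 0.35, 0.26 ± 0.40 and 0.07 ± 0.46 on the log2 scale. The 5 neutrophil genes summed to 48.5 to 68.0 CPM in KO PFOA and 16.5 to 25.9 CPM in KO vehicle, with 0 past the threshold. Log2 fold changes between these 2 groups were led by S100a9 (2.12 ± 0.59), Retnlg (2.25 ± 0.66) and Cxcr2 (1.52 ± 0.47). Against WT, the median of the 5 genes was 0.77 and 1.52 in KO and 0.73 and 0.76 in KI, on vehicle and PFOA. In these comparisons 0 of the 5 passed. Macrophage genes had 0 past the threshold in each comparison with WT, with Chil3 (0.95 ± 0.27), Mrc1 (0.43 ± 0.18) and Marco (0.42 ± 0.21) first on PFOA. Scgb1a1, the club cell secretory protein, fell in KO against WT on vehicle by 1.25 ± 0.32 on the log2 scale (edgeR adjusted p = 0.121), and its mean was 15666 CPM in WT vehicle and 5291 to 7359 CPM in the other groups. Its log2 fold change on PFOA was -1.33 ± 0.32 in WT (edgeR adjusted p = 0.456). The other lung genes named by p-value, Sftpa1 and Ager, had 0.31 ± 0.18 and 0.20 ± 0.15 on PFOA.

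Type 1 innate lymphoid cells share Ncr1, Klrb1c and Tbx21 with NK cells. Of their 4 marker genes, 0 passed in the comparisons with WT. Group means of Itga1 were 297 to 437 CPM, above Ptprc in each group (93.7 to 268 CPM). In bulk lung RNA these genes thus do not single out type 1 innate lymphoid cells. Zfp683 was at 0 counts in 6 of 17 libraries, and Il7r (0.50 ± 0.18), Itga1 (0.22 ± 0.14) and Zfp683 (-1.15 ± 0.89) were first on PFOA over the 3 genotypes. Of 4 mast cell and basophil genes tested, 0 passed, and Cma1, which was at 0 in both WT vehicle libraries, Ms4a2 and Tpsb2 had 1.65 ± 0.55, 0.54 ± 0.61 and 0.70 ± 0.89 on the log2 scale on PFOA.

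Beyond the 10 genes, those whose levels ranked the 17 libraries most like the mean standardized level of the 10 were sought among 15502 genes that averaged 20 counts or more. Of the first 10, those reported here had Spearman correlations of 0.904 to 0.963 and were Gm21188, Tap1, Rhoh, Il18rap, Gm15922, Mx1, S1pr5, Slfn4 and Ifi209. Il18rap and S1pr5 are also in the cytokine and receptor list. S1pr5, which guides NK cells out of marrow and lymph nodes, had 0.809 CPM in WT vehicle and 5.30 CPM in KO PFOA. Tap1, the peptide transporter of MHC class I, had 19.9 and 56.0 CPM in these groups. Ifi209 and Mx1, both interferon-inducible genes, had 4.08 and 33.3 CPM and 1.74 and 7.11 CPM. Group differences enter these correlations, and no test was made.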

How the data were processed

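Total lung RNA was prepared with a stranded total RNA kit. The authors trimmed the reads, aligned them with STAR 2.6 to mm10 in Partek, and deposited estimated counts per gene from an expectation-maximization model, not normalized. The annotation release and the use of strand are not given in the sources used here. DESeq2 3.5 is also in the submitters' processing notes. mm10 is the C57BL/6J genome, while WT mice were Sv/129. The effect of this was not tested. In the deposited table, 29.9% of the values were not whole numbers within a tolerance of 1e-06. All columns belonged to the 17 samples.

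Counts were rounded, genes summing to fewer than 20 counts were dropped, and edgeR 4.0.16 (R 4.3.3) was fitted over all 17 libraries with TMM factors and the quasi-likelihood F-test, with a coefficient per group or, over the 3 genotypes, with additive terms. The Benjamini-Hochberg adjustment covered the 26946 genes tested. A call was an adjusted p under 0.2 with a fold change over 2, a pair of cutoffs the study uses, without its further criterion on the unadjusted p. The study also gives a stricter cutoff, covered by the alternative at an adjusted p under 0.05. The script's fit was run on simulated data with changes only between PFOA and vehicle and only in genes averaging 20 counts or more. That run did not cover the comparisons with WT or changes in genes with fewer counts. CPM are TMM-normalized. A standard error is the log2 fold change divided by the square root of F. Intervals and the 3-count limit cover counting error only. Sums and ratios were not tested. Alternatives were DESeq2 1.42.0, other normalizations and filters, covariates, an adjusted p under 0.05, fits of only the libraries compared, and each library left out. The 10 genes and the lists were chosen with earlier results of these data known. Besides the 10 genes, the text names Ppara, up to 3 genes per list with the smallest p-values for PFOA over the 3 genotypes or with an unadjusted p under 0.01 within a genotype, and the 10 genes most like them across libraries. Other list genes that passed were named after their values were seen. The number of mice limits all comparisons, and p-values measure the spread between mice. Coordinates are those of mm10 (GENCODE M21). Gene starts of the 10 genes were the same in the deposited table. Replicate libraries differed by more than sampling noise. Other software was scipy 1.17.1, pandas 2.3.3 and, for the figures, matplotlib 3.10.9, under Python 3.11.15. Protein sequences were not used here. A B cell gene and 1 of the genes most like the 10 are not reported here.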

Additional observations from a re-analysis of the deposited data

How the results depend on the processing

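For the 10 genes, the direction of each difference between KO or KI and WT held under all alternatives except for Klrd1 in KO on vehicle (-0.87 without WT vehicle 122 and KO vehicle 137, and -0.85 to 5.70 over the fits without 1 library, the lowest without WT vehicle 122) and Eomes in KI on PFOA (-0.0024 to 0.87, the lowest without WT PFOA 56). How many of the 10 genes passed did depend on the setting, and the cause was not tested. An adjusted p under 0.05 left 1 in KO and 1 in KI on vehicle, 2 in KO and 0 in KI on PFOA. Sex as a covariate left 3 in KO on vehicle, 2 in KO on PFOA and 0 in KI on PFOA, and the second index number left 1 and 1 in KO and 2 and 0 in KI on vehicle and PFOA. Fits of only the libraries compared gave 0 in KO and 1 in KI on vehicle, and 3 in KI on PFOA. Upper-quartile factors gave 3 in KO on PFOA, and DESeq2, with either filter, gave 2 in KI on PFOA. Added after the data were seen, the fit without WT vehicle 122 and KO vehicle 137 gave 0 in KO and 1 in KI on vehicle and 3 in KI on PFOA, and the protein-coding share as a covariate gave 3 in KI on PFOA. With each library left out in turn, the counts were 0 to 8 and 2 to 7 in KO and 1 to 8 and 0 to 3 in KI on vehicle and PFOA, 0 to 7 for PFOA in WT, 0 to 1 for PFOA over the 3 genotypes and 0 to 2 for the difference of the KI and WT effects of PFOA. Where a WT vehicle library was left out, the lone one was assumed to vary like the other groups.

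DESeq2 with its default filters gave 1 for PFOA in WT, 1 in KO and 1 over the 3 genotypes, and on the same genes as edgeR it gave 1 in KO and 1 over the 3 genotypes. Smaller PFOA differences turned sign, given as log2 fold changes with their range over the fits that left out 1 library. In WT these were Gzmb (-0.22 without WT vehicle 122 and KO vehicle 137, range -0.22 to 5.57), Nkg7 (range -0.48 to 1.14) and Tbx21 (-0.35 with the second index number, range -0.67 to 1.30). In KO it was Eomes (-0.44 with the second index number, range -0.028 to 0.50). In KI these were Ncr1 (range -0.17 to 0.45), Klrb1c (range -0.36 to 0.24), Klrd1 (0.24 with the second index number, range -0.24 to 0.34), Eomes (range -1.11 to 0.14) and Tbx21 (range -0.12 to 0.61). Over the 3 genotypes they were Eomes (range -0.0096 to 0.59), Ms4a1 (-0.071 without WT vehicle 122 and KO vehicle 137), Cd79a (-0.34 without the same libraries, -0.15 with the protein-coding share as a covariate, range -0.22 to 0.39) and Tpsb2 (-0.036 with the second index number, range -0.37 to 1.58). No paired analysis was possible because the groups share no replicate numbers. Depth limits the lowest values: 3 counts were up to 0.691 CPM, and Ncr1, Klrd1, Gzmb and Eomes had 0 counts in WT vehicle 122.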
